A study of Mus musculus with 6 samples.

Results

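Cytosines outside CpG were examined in the promoters of 15 cardiac and cell cycle genes of mouse embryonic cardiomyocytes, and 1910 of the 2708 listed non-CpG cytosines were kept. A non-CpG cytosine is followed by A, C or T. The letter H stands for A, C or T, and such a cytosine is called CHG when the next base but one is G and CHH otherwise. The 1910 cytosines were those with a coverage of at least 100 calls in each of the 6 samples, more than 30 bp from either end of the listed positions of their amplicon, and outside Camta1 region 2. Of the others, 337 had no call in any sample, another 284 had fewer than 100 calls somewhere, 110 lay near an amplicon end, 2 of them in Camta1 region 2, and a further 67 lay elsewhere in Camta1 region 2. They comprised 548 CHG and 1362 CHH cytosines, and by the following base 530 had A, 711 had C and 669 had T. They came from 25 amplicons, and 1546 lay upstream of the transcripts of their gene, 203 in exons and 161 in introns, from 1340 bp before to 208 bp after the nearest annotated transcription start (GENCODE vM21, build GRCm38.p6).

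The cells were ventricular cardiomyocytes of CD-1 mice, an outbred stock, isolated on embryonic day 13.5 from the ventricles of embryos pooled by litter, and enriched with an antibody against VCAM1. The negative siRNA group received 12 nM of a control siRNA with no intended target, and the DNMT1 siRNA group received 12 nM of a pool of siRNAs against DNMT1. DNA was collected 72 h after transfection in both groups, with 3 samples each. The titles of all negative siRNA samples carry a bracketed mark that no DNMT1 siRNA title has, and whatever it stands for cannot be told apart from the group. The abundance of DNMT1 was not analysed here. No marker of cell type can be read from these amplicons, so the labelled cell type was not checked.

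In mammals most DNA methylation lies at CpG, a sequence that reads the same on both strands, and DNMT1 restores it on the new strand after replication. The CHH context has no such partner cytosine on the other strand, and non-CpG methylation is attributed mainly to the de novo enzymes DNMT3a and DNMT3b, which favour CA over CC and CT. It is abundant in neurons and pluripotent cells and low in most other somatic tissue. Bisulfite turns unmethylated cytosine into uracil, which is read as T, so the methylation level given here is the percent of calls read as C. A methylated cytosine and an unmethylated cytosine that escaped conversion are both read as C and cannot be told apart in these data.

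The sequences around the cytosines on which the results turn are shown first, because the comparison is of sequence contexts. Each runs 5′ to 3′ for 41 bases on the strand of the gene, and capitals mark the measured cytosine with the 2 bases after it. Positions are counted along the amplicon as in the deposited files. The Cdkn1c window is that of the highest cytosine. It also holds the next 2 in rank, which lie 4 bp and 1 bp before the capitals.
Cdkn1c region 1 position 333, chr7:143461148-143461188, minus strand: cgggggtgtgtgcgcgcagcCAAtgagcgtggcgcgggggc

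The following 5 windows hold the CAC cytosines that averaged at least 1% and had at least 5000 calls in every sample.
Myh7 region 1 position 175, chr14:54995573-54995613, minus strand: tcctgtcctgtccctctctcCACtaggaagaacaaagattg
Tnnt2 region 1 position 148, chr1:135835715-135835755, plus strand: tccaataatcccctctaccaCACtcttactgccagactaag
Nppa region 1 position 117, chr4:148000615-148000655, plus strand: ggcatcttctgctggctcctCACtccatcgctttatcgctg
Myh7 region 1 position 196, chr14:54995552-54995592, minus strand: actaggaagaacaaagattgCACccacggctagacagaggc
Mef2c region 1 position 178, chr13:83503441-83503481, plus strand: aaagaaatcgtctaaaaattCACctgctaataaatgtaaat

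The last 4 windows are of high cytosines with other contexts or low coverage, and of the cytosine with the largest fall among those that passed the test with groups that did not overlap.
Cdkn1a region 1 position 228, chr17:29090682-29090722, plus strand: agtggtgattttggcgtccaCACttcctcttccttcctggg
Mef2c region 1 position 353, chr13:83503616-83503656, plus strand: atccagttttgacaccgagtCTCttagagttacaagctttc
Tnnc1 region 1 position 326, chr14:31207641-31207681, plus strand: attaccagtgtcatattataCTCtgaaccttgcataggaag
Mef2d region 1 position 267, chr3:88141904-88141944, plus strand: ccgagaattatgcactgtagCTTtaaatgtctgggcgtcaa

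Non-CpG methylation was low in all 6 samples. The mean level over the 1910 cytosines was 0.237%, 0.206% and 0.229% in the negative siRNA samples and 0.226%, 0.230% and 0.226% in the DNMT1 siRNA samples. The groups overlapped, and their means differed by 0.00326 percentage points, which is less than the spread between the negative siRNA samples (SD 0.0157, n = 3; two-sided exact permutation test, p = 0.9, where 0.1 is the smallest p that 3 against 3 samples allow). Without negative siRNA replicate 2, the lowest sample, the difference was −0.00555 points. For scale, the mean over the 283 CpG cytosines that passed the same filter was between 24.1% and 25.0% with negative siRNA and between 17.7% and 20.3% with DNMT1 siRNA.

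Each sample had a median coverage of 8536 to 10314 calls over these cytosines, at which 3 calls make up 0.0291% to 0.0351%. When all calls were pooled, the share read as C was lowest in negative siRNA replicate 2, at 0.174% (95% Wilson interval 0.173% to 0.176%), and highest in negative siRNA replicate 3, at 0.212% (0.210% to 0.213%). Intervals and floors cover counting error only, since calls copied by PCR are not independent molecules. The median cytosine averaged 0.169% over the 6 samples, and 90% of cytosines were below 0.334%.

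The siRNA groups overlapped for CHG, for CHH and for each following base. CHG cytosines averaged 0.227% ± 0.0156 (SD, n = 3) with negative siRNA and 0.224% ± 0.00791 with DNMT1 siRNA. CHH cytosines averaged 0.223% ± 0.0179 and 0.229% ± 0.00205. Cytosines before A averaged 0.234% ± 0.0153 and 0.240% ± 0.00831, those before C 0.207% ± 0.0164 and 0.212% ± 0.00424, and those before T 0.233% ± 0.0212 and 0.233% ± 0.00657. Exact permutation p-values were between 0.7 and 1.0 for these 5 groups, and 1 after Benjamini-Hochberg adjustment over them.

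CHG and CHH did not differ beyond the spread between samples. CHG minus CHH was −0.0127, 0.00649 and 0.0184 points in the negative siRNA samples and −0.000459, 0.000367 and −0.0148 points in the DNMT1 siRNA samples. The mean difference was −0.000444 ± 0.0123 points (SD, n = 6), with a positive sign in 3 of 6 samples (two-sided exact sign-flip permutation test, p = 0.938, where 0.0312 is the smallest p that 6 samples allow). By amplicon, CHG was above CHH in 15 of 25.

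The order by following base depended on whether means or medians were taken. All 6 samples measure the same cytosines, so the sign-flip tests between contexts speak of repeatability between libraries only. Cytosines before A had a higher mean than those before C in 6 of 6 samples, by 0.00918 to 0.0419 points, with an average of 0.0278 ± 0.0119 (SD, n = 6; exact sign-flip permutation test, p = 0.0312, adjusted over 4 context comparisons 0.0625). C minus T averaged −0.0236 points and was negative in 6 of 6 samples (SD 0.00599, n = 6; exact sign-flip permutation test, p = 0.0312, adjusted 0.0625). A minus T averaged 0.00414 points and was positive in 4 of 6 samples (exact sign-flip permutation test, p = 0.594), and without Cdkn1c region 1, left out after its 3 highest cytosines had been seen, it was −0.0154 points. None of these differences passed 0.05 after adjustment. A minus C and C minus T were already at the smallest p that 6 samples allow in the sign-flip test. Their adjusted values could have been lower only if another of the 4 comparisons had reached that limit too.

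By medians, cytosines before A were the lowest in every sample. The median difference A minus C was −0.0295 points and A minus T −0.0386 points, negative in 6 of 6 samples for each pair (exact sign-flip permutation test, p = 0.0312 for each, adjusted 0.0625). The mean and the median of A minus C thus differed in sign. Within amplicons, the mean for A was above that for T in 8 of 25 and above that for C in 13 of 25, while T was above C in 21 of 25. The siRNA group did not shift A minus T beyond the spread of the samples (an average of 0.00121 points in the controls and 0.00707 points with DNMT1 siRNA, exact permutation test, p = 0.6, n = 3 per group).

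**Figure D1:**
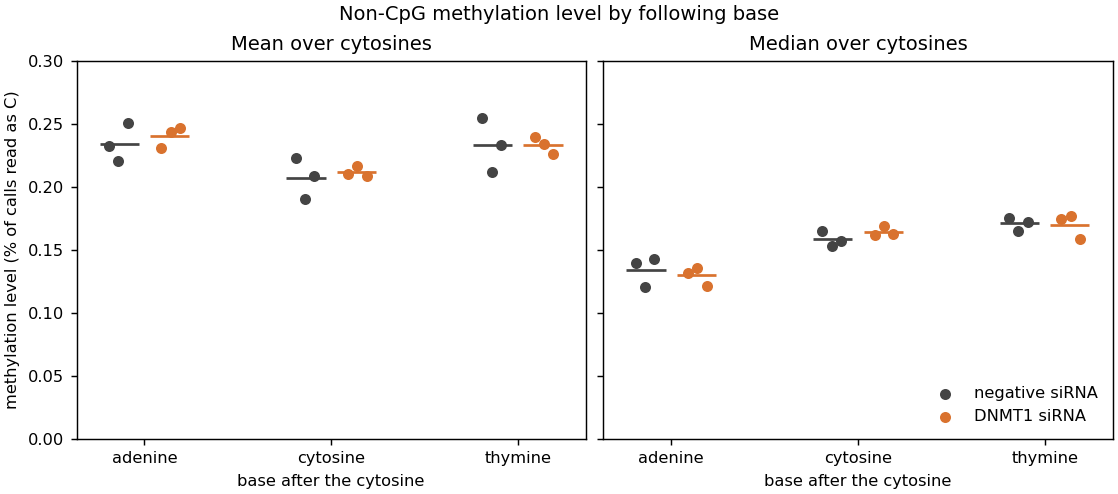
Mean (left) and median (right) methylation level in percent over non-CpG cytosines, by the base that follows the cytosine. Each point is a sample, grey for negative siRNA and orange for DNMT1 siRNA, and the lines are the means of 3 samples. By the mean, cytosines before adenine lie above those before cytosine, and by the median they are the lowest group.

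Some cytosines before A were far above the rest. At or above 1%, averaged over the 6 samples, were 37 of the 1910 cytosines (1.94%), in 14 amplicons, and 16 of them were at or above 1% in every sample. By following base these were 17 of 530 before A (3.21%), 9 of 711 before C (1.27%) and 11 of 669 before T (1.64%). When the highest 1% of cytosines was left out, A minus C was −0.00484 points and A minus T −0.0297 points. These shares are a description of the cytosines and were not tested.

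**Figure D2:**
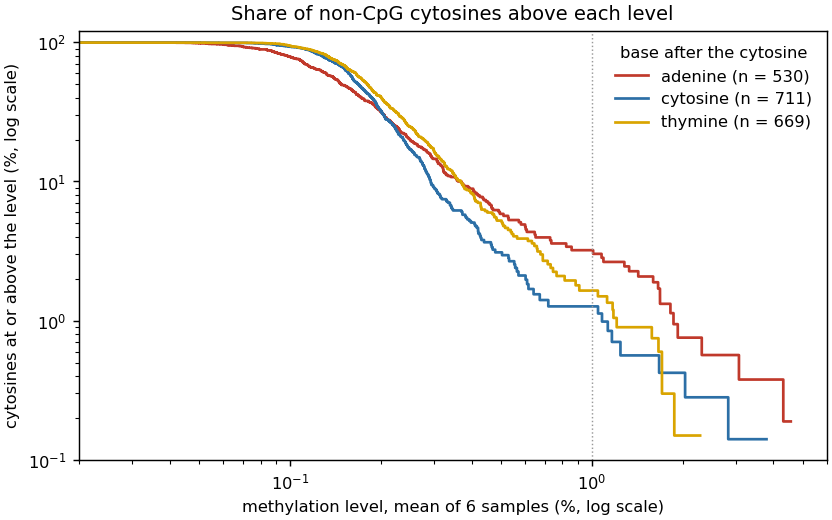
Share of non-CpG cytosines at or above each methylation level, both axes logarithmic, for cytosines followed by adenine, cytosine or thymine, with levels averaged over 6 samples. The adenine curve is the lowest on the left and the highest at the dotted line at 1%, where it stands at 3.21%.

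Of the 12 trinucleotides, CAC had the highest mean, 0.304% over 116 cytosines, and its median was 0.154%. The lowest mean was 0.169%, at 87 CAT cytosines. At or above 1% were 8 of 116 CAC (6.90%), 4 of 97 CAA (4.12%), 5 of 230 CAG (2.17%) and 5 of 198 CTC (2.53%), and no CAT or CTA cytosine. CTC had the second highest mean, 0.277%. CAC averaged 0.282% ± 0.0376 with negative siRNA and 0.326% ± 0.0383 with DNMT1 siRNA, and these ranges overlapped (exact permutation test, p = 0.3, n = 3 per group). At the 181 CCA cytosines the groups did not overlap, at 0.194%, 0.172% and 0.193% with negative siRNA and 0.200%, 0.210% and 0.195% with DNMT1 siRNA. Their exact permutation test gave p = 0.1, the smallest possible, without adjustment over the 12 trinucleotides. The CAC and CCA groups were singled out after their values were seen.

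High levels were more frequent where coverage was low. The mean level was 0.426% in the 156 cytosines whose lowest coverage was under 1000 calls, 0.235% from 1000 to below 5000, 0.199% from 5000 to below 20000, and 0.188% in the 271 cytosines at 20000 or more. Of the 37 cytosines at or above 1%, 18 (48.6%) had fewer than 1000 calls in some sample, against 7.37% of the other cytosines. The part of coverage in their levels was not tested. Among the 1228 cytosines with at least 5000 calls in every sample, 10 averaged at least 1%, and 5 of these 10 were CAC, which made up 74 of the 1228 (6.03%). The remaining 5 were 2 CAG, 1 CCC, 1 CCT and 1 CTC.

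**Figure D3:**
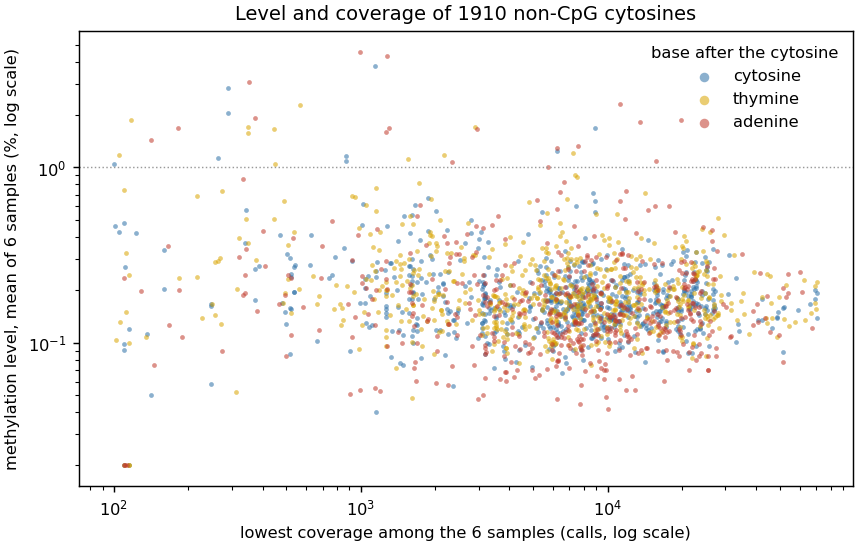
Methylation level averaged over 6 samples against the lowest coverage among the 6 samples, both axes logarithmic, for each non-CpG cytosine, coloured by the following base. The 8 cytosines at 0 in every sample are drawn at 0.02%. No cytosine with 20000 or more calls in every sample reached the dotted line at 1%.

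The CAC cytosine with the highest level at high coverage was Myh7 region 1 position 175, in the promoter of the beta-myosin heavy chain gene, 967 bp before the transcription start. Its level was 1.94%, 1.69% and 1.82% with negative siRNA and 2.21%, 2.30% and 3.94% with DNMT1 siRNA, from 11185 to 17786 calls. The groups did not overlap, and DNMT1 siRNA replicate 3 was the highest. The 12 other non-CpG cytosines in its window were at 0.123% to 0.544%, and the window holds no CpG. The neighbouring CAC at position 196 averaged 1.09% and ranged from 0.546% in DNMT1 siRNA replicate 1 to 1.71% in DNMT1 siRNA replicate 2, with groups that overlapped, while the 8 other non-CpG cytosines of its window were at 0.0606% to 0.194%.

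Tnnt2 region 1 position 148 lay 619 bp before the start of the cardiac troponin T gene. Its level was 1.69%, 1.78% and 1.97% with negative siRNA and 1.24%, 2.54% and 1.98% with DNMT1 siRNA, from 19740 to 25186 calls, so the DNMT1 siRNA samples spanned the control range. The 15 other non-CpG cytosines of its window were at 0.0817% to 0.355%. Nppa region 1 position 117, 87 bp before the start of the atrial natriuretic peptide gene, varied between samples of the same group, with 0.678%, 0.818% and 3.55% with negative siRNA and 1.03%, 1.89% and 2.98% with DNMT1 siRNA from 13525 to 42420 calls. Replicate 3 was the highest in both groups. Its 12 non-CpG neighbours were at 0.125% to 0.300%, and its 2 neighbouring CpG cytosines averaged 36.8% and 32.0%.

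Mef2c encodes a transcription factor required for heart muscle differentiation, and its CAC at region 1 position 178 was lower with DNMT1 siRNA (logistic regression, adjusted p = 3.56e-05, and quasi-binomial F test, adjusted p = 0.637). The level was 1.10%, 1.23% and 1.31% with negative siRNA and 0.927%, 0.598% and 0.898% with DNMT1 siRNA, with no overlap. The 4 other non-CpG cytosines of its window were at 0.195% to 0.265%, and a CpG 12 bp away averaged 66.4%.

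The 3 highest cytosines of all lay within 4 bp of each other in Cdkn1c region 1, 118 to 122 bp before the start of the gene for p57, an imprinted inhibitor of the cell cycle. Position 333 (CAA) was at 4.92%, 5.33% and 4.54% with negative siRNA and 3.68%, 4.68% and 4.24% with DNMT1 siRNA, from 992 to 2626 calls. Position 329 (CAG) averaged 4.31% and position 332 (CCA) 3.79%. The groups overlapped at all 3, and none passed the test (logistic regression, Benjamini-Hochberg adjusted p = 0.119 at position 333, 0.186 at 329 and 0.637 at 332). The 6 CpG cytosines in the window of position 333 averaged 6.62% to 28.1%. Of the 71 cytosines kept in this amplicon, 8 were at or above 1%, and its means by following base were 0.911% before A, 0.393% before C and 0.238% before T.

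Cdkn1a encodes p21, another inhibitor of the cell cycle, and its region 1 held 3 of the 12 highest cytosines listed under that limit. Position 228 (CAC) was at 2.55%, 4.37% and 1.46% with negative siRNA and 2.73%, 2.82% and 4.52% with DNMT1 siRNA, from only 354 to 1137 calls. The samples of both groups overlapped. The CAC at position 226 averaged 1.93% and the CTC at position 234 averaged 1.71%. Cdkn1b encodes p27, of the same family, and its highest cytosine, the CTG at region 1 position 76, averaged 1.88% from 117 to 153 calls, ranging from 0.654% to 4.24% between samples.

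The other 2 of the 12 listed were CTC cytosines. Mef2c region 1 position 353 averaged 2.29% and ranged from 2.00% to 2.74%, with groups that overlapped, from 569 to 969 calls. Tnnc1 region 1 position 326, 651 bp before the start of the cardiac troponin C gene, was at 1.70%, 1.08% and 1.10% with negative siRNA and 1.93%, 1.90% and 2.55% with DNMT1 siRNA, from 2907 to 4118 calls. The groups did not overlap there, and the DNMT1 siRNA samples were higher. This cytosine lay just inside the limit of 30 bp from an amplicon end. The CTG at position 328, left out by that limit, averaged 2.14%.

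**Figure D4:**
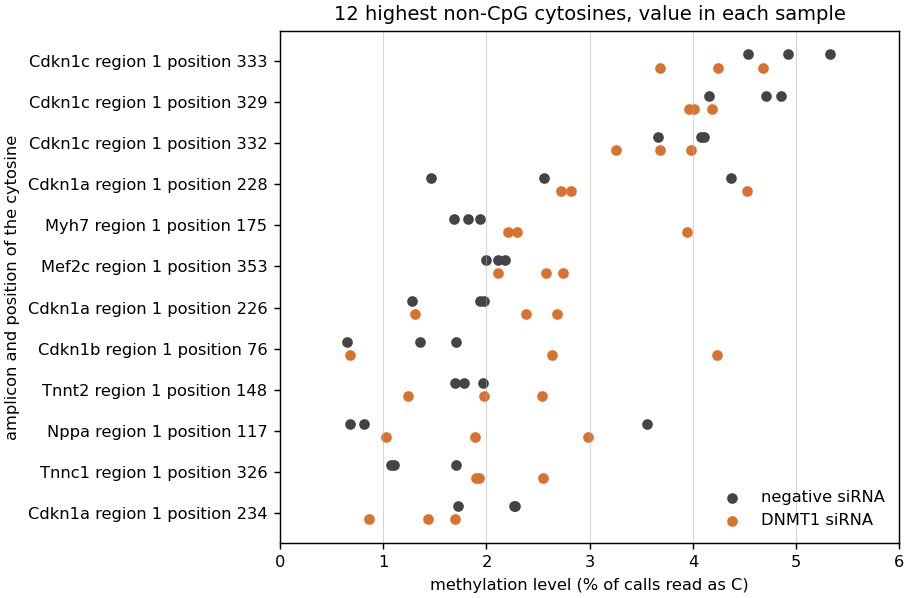
Methylation level in percent in each of the 6 samples at the 12 highest non-CpG cytosines, at most 3 per amplicon, grey for negative siRNA and orange for DNMT1 siRNA. The 3 cytosines of Cdkn1c lie at 3.25% to 5.33%, and the 2 groups are apart at 3 cytosines, higher with DNMT1 siRNA at Myh7 region 1 position 175 and Tnnc1 region 1 position 326 and lower at Cdkn1a region 1 position 234.

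Amplicon means were between 0.141% and 0.481%. The highest were Cdkn1c region 1 (0.481% ± 0.0526, SD, n = 6), Cdkn1a region 1 (0.350% ± 0.119), Myh7 region 1 (0.307% ± 0.0454), Mef2c region 1 (0.284% ± 0.0492) and Tnnc1 region 1 (0.271% ± 0.0638). The lowest were Nppb region 1 (0.141% ± 0.00593), the promoter of the B-type natriuretic peptide gene, Tnnc1 region 2 (0.167%), Myh7b region 2 (0.168%), Tnnt2 region 2 (0.169%) and Camta2 region 2 (0.169%). In Cdkn1a region 1, negative siRNA replicate 1 stood at 0.590% while the other 5 samples were between 0.267% and 0.321%.

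By role, the cell cycle inhibitors Cdkn1c, Cdkn1a and Cdkn1b averaged 0.481%, 0.350% and 0.208%, and the myocyte transcription factors Mef2c and Mef2d 0.284% and 0.206%. The myosin heavy chain genes Myh7, Myh6 and Myh7b averaged 0.261%, 0.195% and 0.181%. The troponin genes Tnnt2, Tnnc1 and Tnni3 averaged 0.219%, 0.214% and 0.209%, and the natriuretic peptide genes Nppa and Nppb 0.214% and 0.173%. The calmodulin-binding transcription activators Camta1 and Camta2 averaged 0.234% and 0.170%. The values of Cdkn1c, Cdkn1a, Cdkn1b, Mef2c and Camta1 rest on region 1 alone, and those of the other genes on both regions. Across the 25 amplicons, the non-CpG mean and the CpG mean had a Pearson r of 0.190 and a Spearman rho of 0.295. With the median non-CpG cytosine of each amplicon in place of the mean, they were 0.0272 and −0.00846. These values are descriptions, since amplicons of a sample share its library and those of a gene its promoter. In Camta1 region 1 the CpG mean was 0.232%, close to its non-CpG mean of 0.234%. In Mef2d region 1 the CpG mean was 0.765% and the non-CpG mean 0.247%.

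The siRNA groups did not overlap in 5 of the 25 amplicons. The level was lower with DNMT1 siRNA in Mef2c region 1, at 0.319%, 0.313% and 0.349% against 0.238%, 0.235% and 0.248%. It was also lower in Mef2d region 1, at 0.244%, 0.202% and 0.619% against 0.134%, 0.141% and 0.142%, where negative siRNA replicate 3 stood apart. Levels were higher with DNMT1 siRNA in Tnnt2 region 1 (0.220% against 0.255%), Myh6 region 2 (0.170% against 0.218%) and Tnni3 region 1 (0.167% against 0.189%). No amplicon passed an exact permutation test after adjustment over the 25, where the smallest adjusted p was 0.455 (n = 3 per group). None could have passed, because 3 against 3 samples allow no unadjusted p below 0.1, the value at each of the 5 amplicons without overlap. The test therefore cannot decide whether any amplicon changed. The count of lower amplicons was 4 without negative siRNA replicate 1, and 5 without negative siRNA replicate 3 or DNMT1 siRNA replicate 2. The count of higher amplicons was 9 without negative siRNA replicate 1, 6 without DNMT1 siRNA replicate 1, and 5 without negative siRNA replicate 3 or DNMT1 siRNA replicate 3. With fewer samples the groups stay apart more easily, so these counts cannot be set directly against those of all samples.

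**Figure D5:**
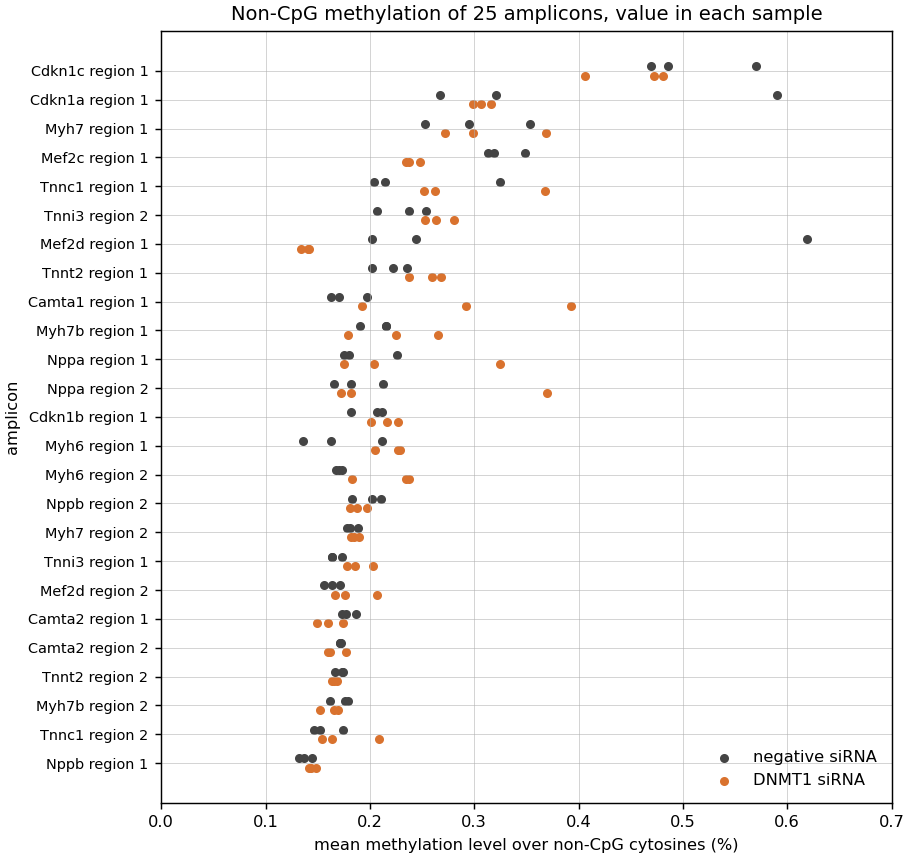
Mean methylation level in percent over the non-CpG cytosines of each of 25 amplicons, with a point for each sample, grey for negative siRNA and orange for DNMT1 siRNA, ordered by the mean of 6 samples. Single samples stand apart in Mef2d region 1 (negative siRNA, 0.619%) and Cdkn1a region 1 (negative siRNA, 0.590%).

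In Mef2d, 9 genome positions were measured in both amplicons, so the same cytosine could be compared between them. The level was higher in region 1 at 8 of the 9, with region 1 at 0.122% to 0.539% and region 2 at 0.0404% to 1.08%. At the exception, region 1 position 73 read 0.214% from 10825 to 16573 calls, and the same base, region 2 position 351, read 1.08% from 875 to 1766 calls. These pairs are the same cytosine of the same samples, and each level is a mean of 6 samples. Over the whole amplicon, negative siRNA replicate 3 stood at 0.619% in region 1 and at 0.172% in region 2. The part of this sample in the differences between the regions was not tested.

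Tested one by one, 0 of the 1910 cytosines changed by more than 5 percentage points at an adjusted p under 0.05 in a logistic regression on the counts, adjusted over all 2193 CpG and non-CpG cytosines. Among all 2193, 5.11% were called lower and 0% higher by this rule. A cytosine below 5% cannot fall by 5 points, and the level of most was far below this. At an unadjusted p under 0.05 there were 501 non-CpG cytosines by the logistic regression (26.2%), 47 by a quasi-binomial F test (2.46%) and 130 by limma (6.81%). Of all tested cytosines these shares were 32.9%, 6.79% and 10.9%. Differences between the pooled groups ran from −0.828 points, at Cdkn1c region 1 position 333, to 1.19 points, at Cdkn1b region 1 position 76, with a median of 0.00316.

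Without the 5-point limit, the logistic regression called 133 non-CpG cytosines lower (6.96%) and 209 higher (10.9%), where 14.7% of all tested cytosines were lower and 10.3% higher. This test takes each call as independent and does not use the spread between samples. Counts varied more than that between samples of a group, with a median dispersion of 1.65. The quasi-binomial F test, which uses this spread, called 0 (0% of all tested cytosines), and limma called 3 (0.157%, against 0.410% of all tested cytosines). With 3 samples per group these tests have little power, so a count of 0 does not show that no cytosine changed. Lower calls made up 9.62% of the cytosines before A, 5.34% before C and 6.58% before T, and higher calls 14.3%, 9.99% and 9.27%. The groups did not overlap at 106 non-CpG cytosines that were lower (5.55%) and 110 that were higher (5.76%), against 10.9% and 5.11% of all tested cytosines.

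The 3 cytosines called by limma all lay in Mef2c region 1 and were all lower with DNMT1 siRNA, and they were named after this result was seen. Position 169 (CTA) was at 0.438%, 0.347% and 0.564% with negative siRNA and 0.0730%, 0.0909% and 0.0762% with DNMT1 siRNA (limma, adjusted p = 0.0298). Position 148 (CTT) was at 0.286%, 0.378% and 0.457% against 0.0959%, 0.0895% and 0.0715% (limma, adjusted p = 0.0430). Position 42 (CCT) was at 0.400%, 0.344% and 0.273% against 0 of at least 993 calls in each DNMT1 siRNA sample, which allows a level of up to 0.302% (limma, adjusted p = 0.0298). The quasi-binomial adjusted p-values of these cytosines were 0.165, 0.249 and 0.426.

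Among cytosines that passed the logistic regression with groups that did not overlap, 63 were lower (3.30% of the non-CpG cytosines, against 8.57% of all tested) and 51 higher (2.67%, against 2.33%). Falls and rises were named from these at 1 per amplicon and direction. The largest fall was at Mef2d region 1 position 267 (CTT), at 0.506%, 0.484% and 1.51% with negative siRNA and 0.224%, 0.167% and 0.213% with DNMT1 siRNA, where negative siRNA replicate 3 was again the highest. The 5 non-CpG and 2 CpG neighbours in its window were also highest in that sample, at 0.783% to 1.51%. Nppb region 2 position 359 (CTG) was at 1.34%, 1.31% and 1.56% against 0.995%, 0.877% and 0.998%, and its groups lay well apart. Cdkn1a region 1 position 154 (CTT) was at 1.80% in negative siRNA replicate 1 and between 0.136% and 0.336% in the other 5 samples. At Cdkn1c region 1 position 86 (CTC) the level was 0.331%, 0.168% and 0.384% with negative siRNA, on few C calls among 1208, 1189 and 521 calls. No C was read there in the DNMT1 siRNA samples. They had 940, 883 and 786 calls. In the last of them alone, 786 calls allow a level of up to 0.382%, close to the highest control level.

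Among the same cytosines, the largest rise was at Myh7 region 1 position 175, by 1.08 points (logistic regression, adjusted p = 5.89e-24, and quasi-binomial F test, adjusted p = 0.771). It was followed by Tnnc1 region 1 position 326, by 0.864 points, a cytosine just inside the limit of 30 bp from an amplicon end. Tnni3 region 1 position 183 is a CAC in an exon of the cardiac troponin I gene, 11 bp after the nearest annotated transcription start. It was at 0.453%, 0.303% and 0.706% with negative siRNA and 1.11%, 0.815% and 1.02% with DNMT1 siRNA. Tnni3 region 2 position 397 (CCG) rose by 0.333 points, on few C calls. It was at 0.125%, 0% and 0.131% with negative siRNA and 0.286%, 0.284% and 0.631% with DNMT1 siRNA, from 761 to 1267 calls. At the lowest coverage of the DNMT1 siRNA samples, 3 calls make up 0.286%. Nppa region 2 position 316 (CAG) was at 0.982% in DNMT1 siRNA replicate 1 and between 0.0454% and 0.0738% in the other 5 samples. The neighbours at positions 311, 319, 330 and 332 were raised in that sample too, at 0.856%, 0.975%, 0.915% and 0.674%. Those at positions 301, 302 and 304 were at 0.414%, 0.230% and 0.328% there. None of the 10 cytosines named by this rule passed the quasi-binomial or limma test after adjustment. The 3 in Mef2c region 1 that passed limma were not among them, since position 178 had a larger fall in that amplicon.

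Other features of the sequence were tabulated as well. By the second base after the cytosine, the mean was 0.259% for C, 0.225% for G, 0.207% for A and 0.204% for T. By the base before the cytosine, the mean was 0.254% after G, 0.233% after A, 0.212% after C and 0.210% after T. Cytosines within 2 bp of a CpG averaged 0.239%, and those more than 30 bp away averaged 0.213%. Upstream cytosines averaged 0.231%, exonic 0.188% and intronic 0.223%. Of the 37 at or above 1%, 33 were upstream, as were 1546 of all 1910. The share at or above 1% was 2.13% upstream, against 1.94% of all. Levels of the 1910 cytosines ranked alike between samples to a moderate degree, with a Spearman rho from 0.394 to 0.504 over the pairs of samples. These values are descriptions across cytosines, which share libraries and depth, and were not tested.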

How the data were processed

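Samples were grouped by their titles. Per the methods of the study, DNA was bisulfite-converted, amplified, tagmented and sequenced on a MiSeq, and the submitters' processing notes name FastQC, Bismark, Bowtie2 and build mm10, with versions not given in the sources used here. Whether duplicates were removed is not given either. The deposited files hold the coverage as a count of calls, and freqC and freqT as the percent of calls read as C or T. The product of coverage and percent gave the number of C calls, whole to within 4.04e-06. Amplicons were placed on GRCm38.p6, and the listed entry Cdkn1c region 2 matched Cdkn1b, with no call in any sample.

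Members and lists were chosen with earlier results of these data known. Levels were averaged over cytosines in each sample. The siRNA groups were compared with exact permutation tests, two-sided, over 20 relabellings, contexts by exact sign-flip tests over 6 samples (64 patterns), and single cytosines by logistic regression with a likelihood-ratio test, with Benjamini-Hochberg adjustment over 2193 cytosines. Alternatives were limma on the log2 ratio of C calls to T calls, with 1 added to each, a quasi-binomial F test, other coverage minimums, medians, the replicate number as a block, and leaving out each sample. Named were the 12 highest cytosines (at most 3 per amplicon), the 5 highest and 5 lowest amplicons, and the 5 largest falls and rises among cytosines with an adjusted p under 0.05 and groups that did not overlap (at most 1 per amplicon and direction). The replicate numbers were not taken as pairs. Which litters gave which sample is not stated, so p-values measure the spread between these samples. Scripts were tested on simulated data. Calculations used Python 3.11.15, numpy 2.4.6, scipy 1.17.1, R 4.3.3 and limma 3.58.1.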

Additional observations from a re-analysis of the deposited data

Results flagged for a closer look

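Camta1 region 2 was left out of the comparisons, and its 67 non-CpG cytosines with enough coverage were higher in 2 samples than in any control. Their mean level was 0.298%, 0.118% and 0.145% in the negative siRNA samples and 0.151%, 1.60% and 2.49% in DNMT1 siRNA replicates 1, 2 and 3. By following base, DNMT1 siRNA replicate 2 was at 1.42% before A, 1.73% before C and 1.55% before T. DNMT1 siRNA replicate 3 was at 3.04% before A, 2.28% before C and 2.46% before T. The medians of replicate 2 were 1.92%, 1.90% and 1.99% before A, C and T, and those of replicate 3 were 0.373%, 0.520% and 0.581%, so the means of replicate 3 rest on part of the cytosines. With all calls pooled the level was 1.67% in replicate 2 and 1.19% in replicate 3, against 0.150% to 0.202% in the negative siRNA samples. The cause was not tested.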

How the results depend on the processing

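Leaving out each sample gave siRNA differences from −0.00555 to 0.00958 points for all non-CpG cytosines, −0.0112 to 0.00440 for CHG, −0.00330 to 0.0146 for CHH, −0.00117 to 0.0140 before A, −0.00408 to 0.0123 before C and −0.0106 to 0.0106 before T. It gave −0.00422 to 0.00243 for CHG minus CHH, −0.00592 to 0.0141 for the siRNA effect on A minus T, 2 to 5 lower amplicons and 3 to 9 higher ones. None of these differences had passed its test, and the exact permutation tests between siRNA groups could give no p below 0.1 with 3 samples per group.

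With a coverage minimum of 10 the siRNA difference was 0.00707 for CHG and 0.000154 before T. With Camta1 region 2 kept in it was 0.0448 for all non-CpG cytosines (exact permutation test, p = 0.3), against 0.00326 with this amplicon left out. By context it was then 0.0235 for CHG, 0.0532 for CHH, 0.0364 before A, 0.0488 before C and 0.0470 before T. A minus T was −0.00552 and the siRNA effect on it −0.0105. By medians the siRNA difference before A was −0.00431, A minus T −0.0386, A minus C −0.0295 and the siRNA effect on A minus T −0.00322. With the amplicon ends kept in, the siRNA difference before A was −0.00764, CHG minus CHH 0.132, A minus T −0.123 and C minus T −0.143 points, each context difference with an exact sign-flip adjusted p = 0.0417, and 1 cytosine was called higher past 5 points. A single end cytosine, Mef2d region 1 position 415, carried these context differences: without it, an alternative chosen after seeing the data, CHG minus CHH was −0.0118, A minus T −0.00585 and C minus T −0.0258, and none passed. Without the highest 1% of cytosines CHG minus CHH was 0.00514, A minus T −0.0297, A minus C −0.00484, and 5 amplicons were higher. Without cytosines within 2 bp of a CpG the siRNA difference before T was 0.000226, A minus T −0.00145, and 4 amplicons were lower. With equal weight per amplicon the difference before T was 0.000792. A coverage minimum of 1000 gave 5 higher amplicons. Without Cdkn1c region 1, chosen after seeing the data, A minus T was −0.0154. Calls by adjusted p alone fell to 0 lower and 0 higher with the quasi-binomial test, 3 and 0 with limma, and 0 and 0 when cytosines were drawn down to 100 calls. The causes were not tested.

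The replicate block gave 139 lower (7.28%) and 225 higher (11.8%) calls by adjusted p alone, where 15.0% and 11.1% of all tested cytosines were called, and 6 lower and 8 higher amplicons moving the same way in all 3 numbered pairs. Among the named cytosines it took the adjusted p of Tnni3 region 2 position 397 to 0.0510 and that of Nppa region 1 position 117 to 2.80e-12. Samples with the same number did not deviate together (Spearman 0.0135, 0.0110 and 0.0104).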

Other observations

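The 108 cytosines left out near the amplicon ends, outside Camta1 region 2, had a mean between 1.80% and 2.07% in each sample and a median between 0.267% and 0.377%. Without the highest 3 the mean was between 0.581% and 0.817%. The highest was Mef2d region 1 position 415, a CTG 7 bp from the end, at 83.3% from 110 to 182 calls. Tnnt2 region 2 position 326 (CCT), 23 bp from the end, was at 30.7%, 21.3% and 8.03% with negative siRNA and 25.3%, 30.4% and 29.2% with DNMT1 siRNA, and these groups overlapped. Cytosines 21 to 30 bp from an end, just outside the limit, averaged 0.922% with a median of 0.290%, and those 31 to 40 bp from an end, just inside it, averaged 0.289% with a median of 0.200%.

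The base after a CAC was tabulated once the high CAC cytosines had been seen. At or above 1% were 4 of the 35 CAC cytosines followed by T, 2 of 31 followed by C, 1 of 27 followed by A and 1 of 23 followed by G. These counts are too small for an order to be read from them.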
